A study of Mus musculus with 6 samples.

Results

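Sox transcription factors of neural cells were followed in the newborn mouse cerebellum with a conditional knockout of Zeb2. The set held 10 genes, listed by symbol and by family role rather than from measured values, though earlier results of these data were known. Each of these genes matched 1 locus of its own among the 23793 loci of the deposited expression table. They were the SoxB genes of neural progenitors (Sox1, Sox2, Sox3 and Sox21), the glial factor Sox9, the SoxD genes Sox5 and Sox6, and the SoxC genes of young neurons (Sox4, Sox11 and Sox12). RNA came from the cerebellum at postnatal day 0 in 3 control libraries, genotype Zeb2 f/+; hGFAP-cre, and 3 conditional knockout (cKO) libraries, genotype Zeb2 f/f; hGFAP-cre. Controls and cKO thus both carried at least 1 floxed Zeb2 allele and the hGFAP-cre transgene, whose human GFAP promoter drives Cre recombinase in neural progenitors and glia and not in every cell of the tissue. Values were taken to be FPKM, fragment counts scaled to transcript length and library depth, though no label names the unit. Comparisons of level between genes of different length rest on that reading.

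Sox proteins bind DNA through an HMG box, a domain that bends the double helix, and usually act together with a partner factor. SoxB1 proteins hold neural progenitors in a dividing state, Sox21 opposes them, Sox9 supports the switch from making neurons to making glia and the Bergmann glia that follow, SoxD proteins lack an activation domain of their own and modulate SoxE factors, and SoxC proteins switch on genes of differentiating neurons. In the cerebellum Sox1, Sox2 and Sox9 are known from ventricular zone progenitors and Bergmann glia, and Sox4 and Sox11 from young granule neurons.

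A piece of this box is printed here because it is what makes the genes 1 family and because it bears on whether their reads can be told apart. The longest run of codons that encodes the same residues in all 10 proteins was 10 codons long. The coding strand is given 5′ to 3′ from the GENCODE M21 transcripts, with capitals at the 8 of 30 positions where the genes differ and lower case at the 22 that are the same in all.
Sox1: aaGCgGccCatgaaCgcCttCatggtGtgg
Sox2: aaGAgGccCatgaaCgcCttCatggtAtgg
Sox3: aaGCgAccCatgaaCgcGttCatggtGtgg
Sox21: aaGCgGccCatgaaCgcCttCatggtGtgg
Sox9: aaGCgAccCatgaaCgcCttCatggtGtgg
Sox5: aaGCgTccAatgaaTgcCttCatggtGtgg
Sox6: aaGCgAccAatgaaTgcGttCatggtTtgg
Sox4: aaGCgGccCatgaaCgcCttTatggtGtgg
Sox11: aaACgGccCatgaaCgcCttCatggtGtgg
Sox12: aaGCgGccGatgaaCgcGttCatggtGtgg

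On GRCm38 these stretches lie in coding exons at chr8:12396514-12396543 (Sox1, plus strand), chr3:34650545-34650574 (Sox2, plus), chrX:60892969-60892998 (Sox3, minus), chr14:118235582-118235611 (Sox21, minus), chr11:112782900-112782929 (Sox9, plus), chr6:143841247-143841276 (Sox5, minus), chr7:115489736-115489765 (Sox6, minus), chr13:28952815-28952844 (Sox4, minus), chr12:27342232-27342261 (Sox11, minus) and chr2:152397549-152397578 (Sox12, minus). Sox1 and Sox21, of the SoxB1 and SoxB2 subgroups, were identical over the 30 bases. Pairs from different subgroups differed at 0 to 6 bases and pairs of the same subgroup at 2 to 4, with a median of 3 for both. Over whole transcripts (the annotated one with the longest coding sequence for each gene) the longest identical run was 48 bases between Sox4 and Sox11 and 45 between Sox1 and Sox3, and at most 38 in any other of the 45 pairs. The sources used here do not give the read length, so whether a read could fall inside such a run is unknown. Of the 10 genes, 7 have a single exon in that transcript, while Sox9 has 3, Sox5 15 and Sox6 16. Sox2 lies inside the non-coding gene Sox2ot on the same strand, which had a locus of its own at 1.75, 2.41 and 2.49 FPKM across the controls, against 2.28, 2.83 and 2.21 FPKM across cKO 1, 2 and 3. Sox5 spans 953553 bases and overlaps 7 other annotated genes, of which Sox5os3 had a locus, at 0.0963 FPKM or less in every library.

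Some facts of the whole series touch every value that follows. Zeb2 itself, a zinc finger repressor, stood at 11.4, 9.52 and 7.995 FPKM across the controls, against 6.19, 3.89 and 5.81 FPKM across cKO, so that the groups did not overlap. Its log2 fold change was -0.77 (SE 0.18, limma adjusted p = 0.107), and p = 0.1 was reached by exact permutation (two-sided), which is the lower limit for groups of 3. The labels do not name the floxed exon, and a value for the whole locus does not measure it by itself. Xist was at 0.331 to 0.515 FPKM in the controls and 142 to 147 FPKM in cKO, and Y-linked Ddx3y at 15.2 to 17.3 FPKM against at most 0.0286 FPKM, so genotype and sex cannot be told apart. Library sums lay between 497542 and 524474 FPKM, and the sources used here do not state how many reads lie behind them. By log2 values over all tested loci, cKO 3 was closer to control 3 (Pearson r = 0.956) and control 1 (0.953) than to cKO 1 or cKO 2 (0.952 each), and results are therefore also given without single libraries. The labels do not say whether libraries came from separate animals, and if they did not, the p-values describe technical spread alone.

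The Sox genes covered a wide range of levels, and the SoxC genes led. In the controls the order by mean FPKM was Sox4, Sox12, Sox11, Sox2, Sox1, Sox9, Sox21, Sox6, Sox5 and Sox3. Sox12 and Sox11 overlapped in their control values, as did Sox5 and Sox3, while every other gene lay apart from its neighbour in that order. Over all 6 libraries the ranges of Sox11 and Sox2, of Sox1 and Sox9 and of Sox21 and Sox6 overlapped too. The 3 SoxC genes made up 71.3 ± 0.307% of the summed FPKM of the 10 genes in the controls (SD, n = 3) and 72.7 ± 3.54% in cKO (SD, n = 3). SoxB1 genes made up 17.7 ± 0.114% and 16.7 ± 2.28%, Sox9 4.73 ± 0.449% and 4.29 ± 0.905%, SoxD genes 3.74 ± 0.158% and 3.86 ± 0.218%, and Sox21 2.58 ± 0.191% and 2.43 ± 0.384%. The shares of the groups overlapped in all 5 classes. In bulk tissue, fewer cells of a type and less RNA per cell cannot be told apart.

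**Figure D1:**
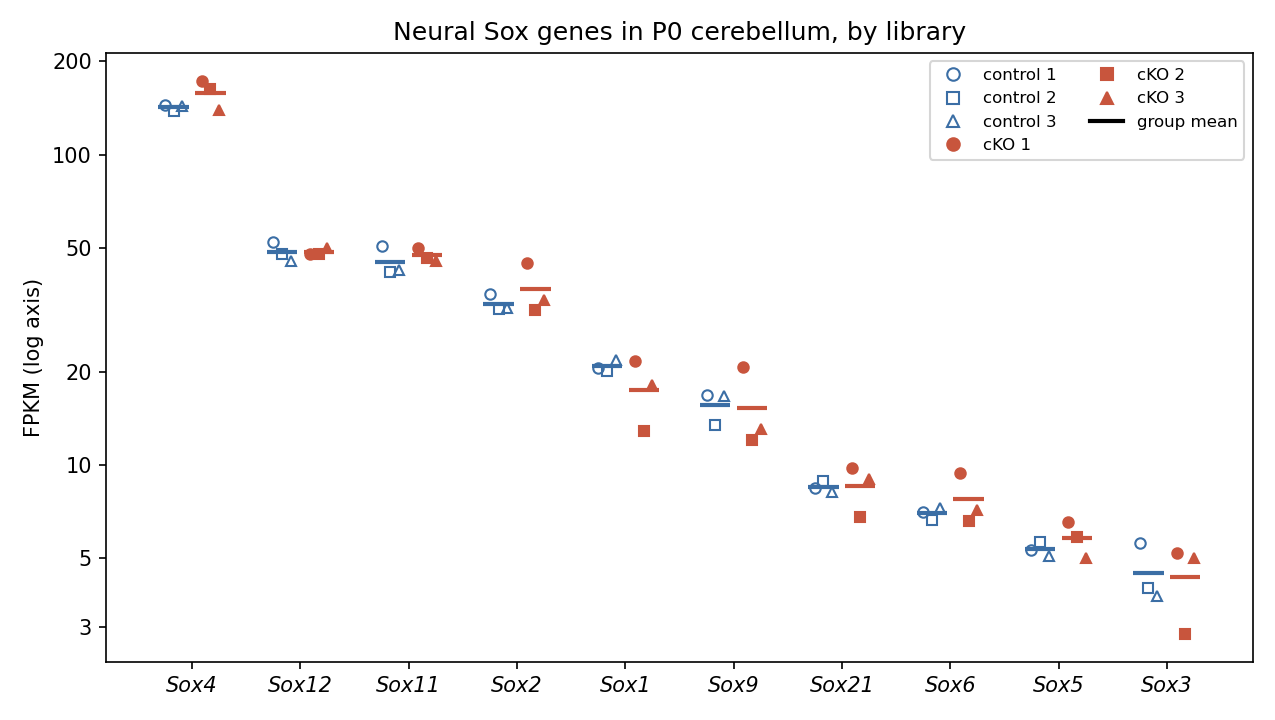
FPKM of the 10 Sox genes on a log axis, in the order of their control means, with open blue symbols for the 3 control libraries, filled red symbols for the 3 cKO libraries and bars for group means. Sox4 lies between 138 and 173 FPKM in all 6 libraries and Sox3 between 2.85 and 5.62, and control and cKO values overlap for every gene.

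None of the 10 Sox genes was called changed in cKO. All 10 passed the filter on low values, and 0 of 10 reached a limma adjusted p of 0.05 (Benjamini-Hochberg adjustment over 13612 tested loci), where 78 loci or 0.573% did, 0.242% higher and 0.331% lower in cKO. Before adjustment 0 of 10 had a p under 0.05, against 17.6% of all tested loci. Control and cKO values overlapped for all 10, and the groups lay apart for 23.9% of tested loci. The median SE was 0.12 for the 10 genes and 0.077 over all tested loci. With so few genes, the difference from these shares was not tested. The log2 fold changes of FPKM + 1 ran from -0.27 to 0.15 with a median of 0.04, beside a median of -0.0095 over all tested loci, and 6 were above and 4 below 0. Under the 24 alternatives no call appeared either (Sox3 was not tested in 2 of them), and the smallest adjusted p of any of the 10 was 0.145, for Sox4 without cKO 3.

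The 3 SoxB1 genes of progenitors had the same order among the cKO libraries, cKO 1, cKO 3 and then cKO 2, and lay differently against the controls. Sox1 was at 20.6, 20.1 and 21.9 FPKM in controls 1, 2 and 3 and at 21.6, 12.8 and 18.1 FPKM in cKO 1, 2 and 3. The controls sat close together, cKO 1 lay among them, and cKO 2 and cKO 3 lay under all of them. The log2 fold change was -0.27 (SE 0.17, 95% confidence interval -0.66 to 0.13, limma adjusted p = 0.456), the most negative of the 10, and it was -0.072 without cKO 2 and -0.43 without cKO 1.

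Sox2, a factor that keeps neural stem cells undifferentiated, was at 35.5, 31.8 and 32.0 FPKM across the controls, against 44.8, 31.7 and 34.0 FPKM across cKO. Only cKO 1 lay above the controls. The log2 fold change was 0.14 (SE 0.13, interval -0.17 to 0.44, limma adjusted p = 0.627), and it was -0.0092 without cKO 1 and 0.23 without cKO 2.

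Sox3, the X-linked SoxB1 gene, was at 5.62, 4.02 and 3.78 FPKM across the controls, against 5.23, 2.85 and 5.02 FPKM across cKO. Control 1 was the highest library and cKO 2 the lowest, with the other 4 between. The log2 fold change was -0.046 (SE 0.21, interval -0.55 to 0.46, limma adjusted p = 0.937), the widest interval of the 10 genes, and the sign turned without cKO 2 (0.18) and without control 1 (0.099). Because Sox3 lies on X, the difference in Xist between the groups stands beside this value, and its part was not tested.

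Sox21, the SoxB2 repressor that counteracts SoxB1 factors, was at 8.46, 8.905 and 8.16 FPKM across the controls, against 9.77, 6.78 and 9.04 FPKM across cKO. The cKO libraries fell on both sides of the controls. Means were 8.51 ± 0.375 and 8.53 ± 1.56 FPKM (SD, n = 3 each), and the log2 fold change was -0.0096 (SE 0.12, interval -0.30 to 0.28), with a sign that turned under upper quartile scaling (0.0045), under quantile normalization (0.015), without control 2 (0.020) and without cKO 2 (0.13).

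Sox9, needed for gliogenesis, was at 16.8, 13.5 and 16.7 FPKM across the controls, against 20.7, 12.02 and 13.02 FPKM across cKO. The cKO libraries held both the highest and the lowest of the 6 values. Means were 15.7 ± 1.87 and 15.2 ± 4.72 FPKM (SD, n = 3 each), with a log2 fold change of -0.069 (SE 0.20, interval -0.53 to 0.40, limma adjusted p = 0.889). Leaving out cKO 1 gave -0.30, leaving out cKO 2 gave 0.071 and leaving out cKO 3 gave 0.018.

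The SoxD genes lay slightly higher on average in cKO without passing. Sox5 was at 5.34, 5.67 and 5.11 FPKM across the controls, against 6.55, 5.87 and 5.04 FPKM across cKO, and its log2 fold change was 0.092 (SE 0.093, interval -0.13 to 0.31), or 0.016 without cKO 1 and 0.18 without cKO 3. Sox6, which works with Sox5 and Sox9 in cartilage and restrains oligodendrocyte precursors, was at 7.03, 6.67 and 7.27 FPKM across the controls, against 9.44, 6.62 and 7.19 FPKM across cKO. As for Sox2, cKO 1 alone stood above the controls, and the log2 fold change of Sox6 was 0.12 (SE 0.12, interval -0.17 to 0.40), or -0.016 without cKO 1 and 0.21 without cKO 2.

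SoxC genes of young neurons had the tightest estimates. Sox4 was at 144.5, 137.9 and 143.8 FPKM across the controls, against 173.1, 163.3 and 139.2 FPKM across cKO. In cKO 1 and cKO 2 it lay above every control, and in cKO 3 among them. The log2 fold change was 0.15 (SE 0.086, interval -0.053 to 0.36, limma adjusted p = 0.414), the highest of the 10, and it was 0.24 without cKO 3 and 0.086 without cKO 1.

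Sox11, the close relative of Sox4, was at 50.9, 41.9 and 42.5 FPKM across the controls, against 50.2, 46.5 and 45.5 FPKM across cKO. Control 1 was above all 3 cKO libraries and the other controls were below them. The log2 fold change was 0.075 (SE 0.085, interval -0.13 to 0.28, limma adjusted p = 0.694), or 0.16 without control 1, 0.027 without control 2, 0.035 without control 3 and 0.034 without cKO 1. Sox12, a weaker activator of the same group, was at 52.2, 47.9 and 45.4 FPKM across the controls, against 47.7, 47.8 and 49.9 FPKM across cKO. All cKO values lay within the range of the controls, and the log2 fold change was 0.0017 (SE 0.062, interval -0.15 to 0.15), turning sign without control 2 (-0.0054), control 3 (-0.044) or cKO 3 (-0.019).

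The lowest values step alike in controls 2 and 3 and cKO 1 and 2, and otherwise in control 1 and cKO 3, which gives 2 sets, here called processing sets. No label names such sets, and the origin of the steps was not tested. In the larger set Sox4 and Sox11 had log2 fold changes of 0.25 and 0.19 with unadjusted limma p of 0.0139 and 0.0287. Neither passed after adjustment (0.243 and 0.277). The intervals of the full comparison do not show that levels were equal. On the log2 scale they leave room for a rise of Sox4 by up to 0.36, a rise of Sox3 by up to 0.46 and a fall of Sox1 by up to 0.66.

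**Figure D2:**
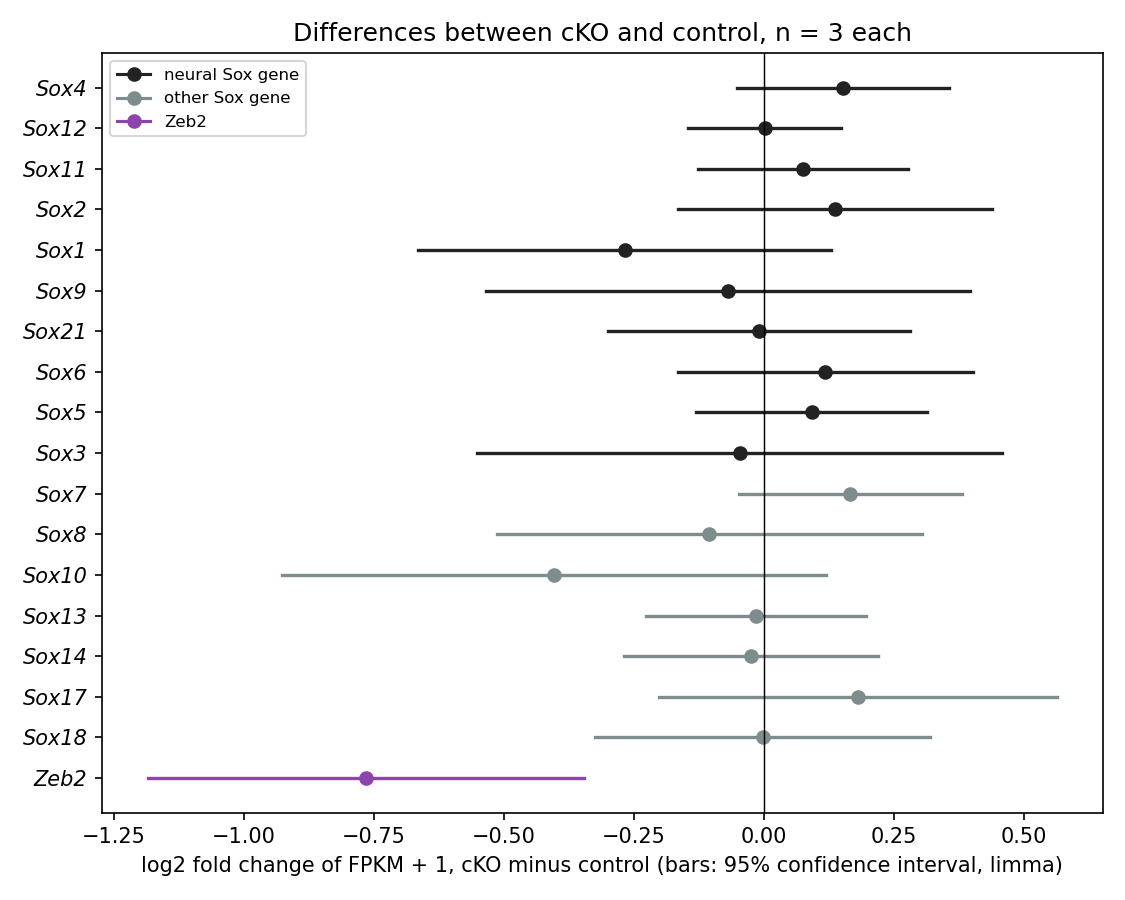
Log2 fold change of FPKM + 1, cKO minus control, for the 10 Sox genes (black), the 7 other tested Sox genes (grey) and Zeb2 (purple), with limma 95% confidence intervals. Every Sox interval crosses 0, and that of Zeb2 runs from -1.18 to -0.35.

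The cKO libraries differed more from each other than the controls did for most of the Sox genes. The SD of log2(FPKM + 1) was larger among cKO than among controls for 8 of the 10 genes, all but Sox11 and Sox12, against 54.7% of tested loci, with a median of 0.076 in controls and 0.24 in cKO for the 10 genes and 0.085 and 0.092 over all tested loci. Of the 3 cKO libraries, cKO 1 was the highest for 9 of the 10 genes, all but Sox12, compared with 33.02% of all tested loci. For 6 genes cKO 2 was the lowest, Sox1, Sox2, Sox3, Sox21, Sox9 and Sox6, compared with 30.7% of tested loci. This was seen in the values and has no test, and the 10 genes are not independent of each other.

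Between cKO 1 and cKO 2 the FPKM of Sox3 differed 1.83-fold, that of Sox9 1.72-fold and that of Sox1 1.68-fold. For Sox2, Sox21 and Sox6 the ratio was 1.41, 1.44 and 1.43, and for Sox5, Sox4, Sox11 and Sox12 it was 1.11, 1.06, 1.08 and 0.998. The genes with the larger ratios were thus the SoxB genes, Sox9 and Sox6, and the SoxC genes and Sox5 differed less. As sums, SoxB1 genes came to 71.7, 47.4 and 57.1 FPKM in cKO 1, 2 and 3, on both sides of the 55.9 to 61.7 FPKM of the controls, and SoxC genes to 271, 258 and 235 FPKM, against 228 to 248 FPKM.

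**Figure D3:**
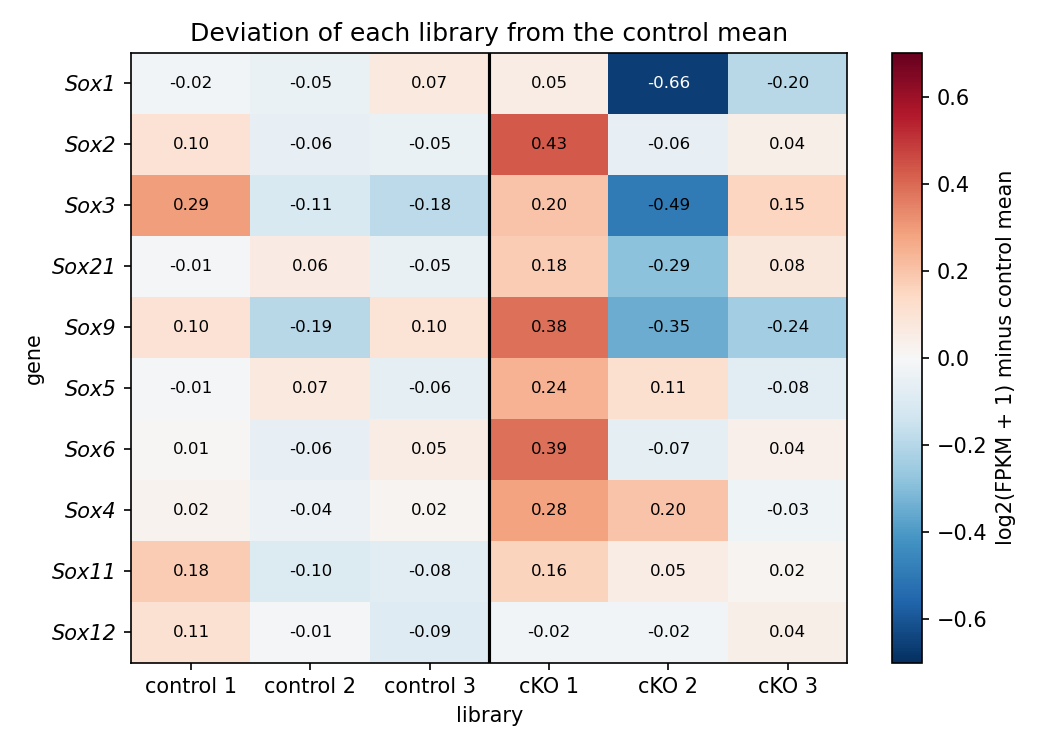
Log2(FPKM + 1) of each Sox gene in each library minus the control mean of that gene (red above, blue below), with the value printed in each cell. The column of cKO 1 is above the control mean for 9 of 10 genes, and the lowest cells, Sox1 at -0.66 and Sox3 at -0.49, are in cKO 2.

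Sums of cell type markers also differed among the cKO libraries. The 8 markers of radial and Bergmann glia summed to 2700 to 2819 FPKM across the controls, and to 2477, 2222 and 2432 FPKM across cKO 1, 2 and 3, lowest in cKO 2, where the glutamate transporter gene Slc1a3 was at 92.9 FPKM against 206 in cKO 1 and 182 in cKO 3. The 5 meningeal fibroblast markers summed to 26.8, 55.3 and 10.6 FPKM in cKO 1, 2 and 3 and to 4.62 to 24.0 FPKM in the controls, and the 4 choroid plexus markers to 3.25, 14.3 and 3.17 FPKM and to 2.71 to 8.02 FPKM. Both sums were highest in cKO 2, where the choroid plexus gene Ttr alone was at 10.98 FPKM. Among cKO, Folr1 and Kcne2 were also highest in cKO 2 (2.05 and 0.224 FPKM). Clic6 was highest in cKO 1 (1.27 FPKM, against 1.06 in cKO 2). Of the glial markers, Tnc and the most abundant, Fabp7, were not lowest in cKO 2. Fabp7 was at 1547, 1599 and 1596 FPKM across cKO. Newborn neuron markers summed to 2001, 2301 and 2250 FPKM in cKO and 2056 to 2111 FPKM in the controls. No marker of these 4 lists was at 0 in any library, and their part in the Sox values was not tested. Sums of other lists were highest in cKO 1 and lowest in cKO 2 as well. Across cKO 1, 2 and 3 these were Purkinje cells (359, 323 and 331 FPKM), GABAergic progenitors (31.9, 23.9 and 28.2) and cell cycle (136, 129 and 130). The oligodendrocyte lineage, endothelial and microglia sums were also highest in cKO 1. That of granule neuron progenitors was lowest there (142, 154 and 172.5 FPKM).

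No call was made among Sox genes outside the set either. Of the 10 other Sox genes 7 were tested and 0 of 7 were called or had an unadjusted limma p under 0.05, with log2 fold changes from -0.40 to 0.18 and a median of -0.015. Sox10, the SoxE gene of the oligodendrocyte lineage and its precursors, was at 5.10, 5.54 and 5.33 FPKM across the controls, against 5.51, 2.37 and 3.97 FPKM across cKO. As for Sox1, cKO 2 was the lowest and cKO 1 lay among the controls. The log2 fold change of Sox10 was -0.40 (SE 0.22, limma adjusted p = 0.396), or -0.15 without cKO 2 and -0.63 without cKO 1. Sox8, the remaining SoxE gene, was at 18.0, 14.8 and 18.7 FPKM across the controls, against 20.4, 12.5 and 15.5 FPKM across cKO. For Sox8 and Sox9 alike, cKO 1 was the highest and cKO 2 the lowest of the 6 libraries.

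The SoxF genes of endothelium, Sox7, Sox17 and Sox18, had log2 fold changes of 0.17, 0.18 and -0.0021 and control means of 1.14, 1.28 and 4.54 FPKM. Without control 2 the log2 fold change of Sox7 was 0.11, and that of Sox17 was 0.041, or 0.060 without cKO 1 and 0.28 without control 3. Beside them, 0 of 7 endothelial markers were called, and these summed to 59.6 to 69.4 FPKM in the controls and 68.5 to 74.2 FPKM in cKO. Sox13, the remaining SoxD gene, was at 4.14 ± 0.180 and 4.10 ± 0.541 FPKM, and Sox14, a SoxB2 gene of some GABAergic neurons, at 2.40 ± 0.185 and 2.36 ± 0.395 FPKM (SD, n = 3 each). Sox15 did not exceed 0.161 FPKM nor Sox30 0.285 FPKM in any library and Sry was listed at 0 in all 6, so these 3 were not tested.

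Genes that Sox factors are known to act with or on gave 0 calls in 4 lists. Their unadjusted counts are to be read against the 17.6% of all tested loci with an unadjusted p under 0.05, and no difference between lists was tested. Of 12 SoxB partner and target genes 11 were tested. The median of their log2 fold changes was -0.15, with 8 below and 3 above 0, 0 called and 3 lower with an unadjusted limma p under 0.05. Gli2, a hedgehog effector, was at 8.76, 10.6 and 9.20 FPKM across the controls, against 5.66, 5.72 and 6.61 FPKM across cKO, with every cKO value under every control. Its log2 fold change was -0.59 (SE 0.090, limma adjusted p = 0.0549). Pou3f2, a POU partner of Sox2, was at 10.5 ± 0.262 and 8.99 ± 0.855 FPKM (log2 fold change -0.20), the progenitor homeobox gene Pax6 at 98.5 ± 12.2 and 78.0 ± 11.8 FPKM (-0.34), and Nes, an intermediate filament gene with a Sox2-responsive enhancer, at 36.7 ± 1.87 and 30.7 ± 7.30 FPKM (-0.27; SD, n = 3 each). Without cKO 2 the log2 fold change was -0.13 for Pou3f2 and -0.14 for Nes, and without cKO 1 that of Nes was -0.45. In cKO 1, 2 and 3 Nes was at 38.9, 25.0 and 28.1 FPKM, while Pax6 ran the other way, at 67.6, 90.8 and 75.5 FPKM.

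Of 12 genes of the Sox9 glial programme all were tested, 0 were called, 1 was higher and 4 were lower with an unadjusted limma p under 0.05, and the median log2 fold change was -0.085. Fgfr3, a growth factor receptor of glial progenitors, was at 4.99, 4.16 and 5.38 FPKM across the controls, against 7.48, 8.99 and 7.48 FPKM across cKO, a log2 fold change of 0.62 (SE 0.11, limma adjusted p = 0.0706) with the groups apart. Pdgfra, the receptor of oligodendrocyte precursors, was at 17.3 ± 1.18 and 13.97 ± 0.0447 FPKM (-0.29, adjusted p = 0.0899). Zcchc24 was at 21.2 ± 1.12 and 15.98 ± 3.00 FPKM (-0.40) and Slc1a3 at 269 ± 29.7 and 160 ± 59.6 FPKM (-0.81, or -0.46 without cKO 2; SD, n = 3 each). Neither passed (limma adjusted p = 0.193 and 0.221), and the log2 fold change of Zcchc24 was -0.26 without cKO 2. Nfia, the factor that pairs with Sox9 at the start of gliogenesis, had a log2 fold change of -0.11 and Apcdd1, a target of both, one of 0.021.

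Of 10 SoxC neuronal target genes 8 were tested, 0 were called, and 3 were lower with an unadjusted limma p under 0.05 (median log2 fold change -0.076, with 4 above and 4 below 0). Tead2, a transcription factor of the Hippo pathway that SoxC proteins activate, was at 54.7, 54.0 and 49.8 FPKM across the controls, against 35.6, 37.8 and 41.3 FPKM across cKO, with the groups apart and a log2 fold change of -0.46 (SE 0.069, limma adjusted p = 0.0537). Prox1 was at 4.51 ± 0.584 and 3.46 ± 0.268 FPKM (-0.30), Neurog2 at 4.53 ± 0.685 and 3.34 ± 0.738 FPKM (-0.35) and Neurod1 at 112.2 ± 2.20 and 100.5 ± 8.99 FPKM (-0.16, or -0.084 without cKO 1; SD, n = 3 each). Tubb3, the neuronal tubulin gene, and Dcx, the microtubule protein doublecortin, had log2 fold changes of 0.14 and 0.079. Neurog1, under the filter, was at 1.43, 1.01 and 0.839 FPKM across the controls, against 0.492, 0.127 and 0.167 FPKM across cKO. Without a filter its log2 fold change was -0.73 and it did not pass (limma adjusted p = 0.139).

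Gli2, Tead2 and Fgfr3 passed when small RNA loci were left out of the fit (limma adjusted p = 0.0192, 0.0175 and 0.0254), and with any 1 library left out their adjusted p ran from 0.0616 to 0.224. In the Sox5, Sox6 and Sox9 cartilage list 3 of 8 genes were tested and 0 called, with a median log2 fold change of -0.076. Of the 3, 1 was lower with an unadjusted limma p under 0.05, Col2a1. Col2a1, the type II collagen gene, was at 10.5, 13.7 and 7.81 FPKM across the controls, against 4.44, 3.14 and 6.66 FPKM across cKO, a log2 fold change of -1.03 (SE 0.26, limma adjusted p = 0.126) with the groups apart, while Col11a2 and Col9a1 had log2 fold changes of 0.27 and -0.076. Without control 1 the log2 fold change of Col11a2 was 0.155, and that of Col9a1 was -0.045 without control 2 and -0.041 without cKO 1. Cnmd, a cartilage glycoprotein gene under the filter, was at 0.242 to 0.246 FPKM in the controls and 0.964 to 1.27 FPKM in cKO, and passed without a filter (log2 fold change 0.78, limma adjusted p = 0.0162).

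**Figure D4:**
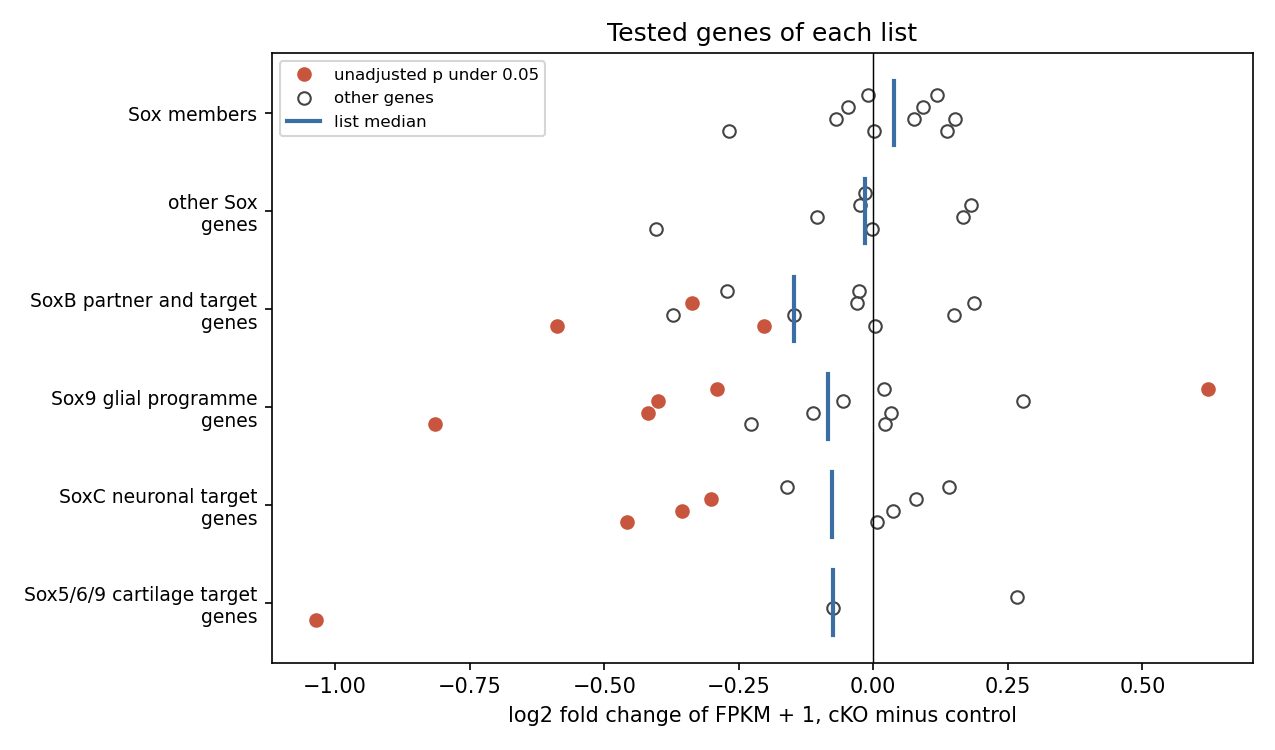
Log2 fold change of FPKM + 1, cKO minus control, for each tested gene of 6 lists, filled red where the unadjusted limma p was under 0.05 and open otherwise, with the list median in blue. The 10 Sox genes and the other Sox genes have no filled point, while the SoxB, Sox9, SoxC and cartilage lists have 3, 5, 3 and 1.

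Calls were made among markers of cell cycle, granule neuron and GABAergic progenitors, oligodendrocyte lineage and microglia, and none among those of radial and Bergmann glia or newborn neurons. All 7 cell cycle markers were lower in cKO with the groups apart, beside 23.9% of all tested loci apart in either direction. Of the 7, 5 were called lower (Top2a, Aurkb, Cdc20, Mcm4 and Bub1), beside 0.331% of all tested loci, at 177 to 195 FPKM summed in the controls and 129 to 136 FPKM in cKO. The lists were chosen with earlier results of these data known, so counts in them are not independent of the data. With 1 library left out, at most 1 of the 7 was called, Cdc20 without control 3 (limma adjusted p = 0.0492). Of 6 granule neuron progenitor markers 2 were called lower, Mfap4 and Ccnd1, and of 4 GABAergic progenitor markers 1, Prdm13. Of 6 microglia markers 1 was called higher, Csf1r, beside 0.242% of all tested loci. All 6 microglia markers were higher with the groups apart and an unadjusted limma p under 0.05 (log2 fold changes 0.25 to 0.51), and 4 were called with small RNA loci left out. Ccnd1 kept its call whichever library was left out (limma adjusted p at most 0.0292). Mfap4 and Prdm13 kept theirs without control 3 (0.0316 and 0.0105) or cKO 3 (0.00836 and 0.0246) and lost them when any of the other 4 libraries was left out, and Csf1r lost its call in all 6 cases (0.0616 to 0.194). The oligodendrocyte lineage list held 1 call, Olig1, higher, which was lost without control 1 (limma adjusted p = 0.0931), cKO 1 (0.110), cKO 2 (0.0906) or cKO 3 (0.0567). Of its 8 markers 2 were higher and 5 lower with an unadjusted limma p under 0.05. None of 8 radial and Bergmann glia, 8 newborn neuron, 5 Purkinje cell, 7 endothelial, 5 meningeal or the 2 tested choroid plexus markers was called by limma, while 3, 1, 2, 0, 0 and 0 of them had an unadjusted p under 0.05. The 3 glial genes were lower in cKO with the groups apart: Vim (log2 fold change -0.74, limma adjusted p = 0.0644), Gdf10 (-1.26, 0.241) and Slc1a3. The newborn neuron gene, Nhlh2, was lower (-0.37, 0.0762), and the 2 Purkinje cell genes were higher. With small RNA loci left out Vim and Nhlh2 were called lower (limma adjusted p = 0.0149 and 0.0347). With 1 library left out, 0 markers of these 2 lists were called.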

How the data were processed

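Cerebellar RNA of 3 control and 3 cKO libraries was measured by sequencing. CASAVA, TopHat, Cufflinks and the build mm10 are named, per the submitters' processing notes. The deposited values were taken to be FPKM made by the authors with Cufflinks, judging by that tool, the locus names and the values, since no label names the unit. The sources used here do not give versions, annotation, strand setting or scaling. A library's number is that of its title; for cKO 1 the description carries another number.

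Loci reaching 1 FPKM in 3 or more of the 6 libraries were tested on log2(FPKM + 1) with limma 3.58.1 (R 4.3.3, trend, two-sided), Benjamini-Hochberg over all loci, threshold 0.05. The pseudocount of 1 understates changes of low genes. Zeb2 also had an exact permutation test. Named were Zeb2, all Sox genes and up to 4 genes per list with the smallest p. Nfia, Apcdd1, Tubb3, Dcx, Bub1, Cnmd, Neurog1, Fabp7, Kcne2 and Clic6 were named after their values were seen. The Sox genes and lists were chosen with earlier results of these data known. Processing sets were read from step sizes of values under 0.1 FPKM: control 1 with cKO 3, and the other 4. The labels do not name them. Code was tested on simulated data. Coordinates and transcripts are from GENCODE M21 (GRCm38). Tables used Python 3.11.15.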

Additional observations from a re-analysis of the deposited data

How the results depend on the processing

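None of the 10 Sox genes was called in any of 24 alternatives, with Sox3 not tested when X and Y loci were left out or a mean of at least 5 FPKM was asked. Sox1, Sox4, Sox5 and Sox11 kept their direction in the 22 alternatives that refit the values; the others change only the threshold. The 78 calls over all loci became 22 with the label set (libraries with or without a description) as covariate, 30 in the larger processing set alone, 28 with no filter, 30 with a mean of at least 5 FPKM, 333 with small RNA loci left out, 336 with robust variance, 409 at a threshold of 0.1, 20 at 0.01, and 21 to 55 without 1 library each (lowest without cKO 1, highest without control 3). With the replicate number as a block there were 15. No label says that same-numbered libraries were paired, though control 3 and cKO 3 also share a label set. Deviations of same-numbered libraries correlated at -0.027, 0.037 and 0.049. With 3 libraries a group, such values cannot show whether libraries of 1 number share an origin. In place of 0 calls, the SoxB list had 1 with small RNA loci left out, robust variance, array weights or a threshold of 0.1, the Sox9 glial list 1 with small RNA loci left out or robust variance and 2 at a threshold of 0.1, the SoxC neuronal list 1 with processing set as covariate, quantile normalization, small RNA loci left out, robust variance, array weights or a threshold of 0.1, and the cartilage list 1 with no filter. Zeb2 passed with small RNA loci left out (log2 fold change -0.77, limma adjusted p = 0.0436) and in no other alternative (at most 0.312).

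Of 1541 values of 71 single genes under the alternatives, 41 turned sign, 84 lost and 28 gained a call, and 1388 kept sign and call. In the libraries with a description label only (controls 1 and 2, cKO 1 and 2) the log2 fold changes that turned were 0.066 for Sox9, -0.065 for Sox12, 0.0050 for Sox13, 0.047 for Sox14, 0.15 for Sox18 and 0.53 for the choroid plexus gene Ttr (otherwise -0.25). In the larger processing set they were 0.067 for Sox9, 0.052 for Sox13, 0.0997 for Sox14 and 0.11 for Sox18. Upper quartile scaling gave 0.0045 for Sox21 and 0.010 for Sox18, quantile normalization 0.015 for Sox21, 0.0066 for Sox13 and 0.022 for Sox18, median of ratios scaling 0.00023 for Sox18, and a pseudocount of 0.1 gave 0.00019 for Sox18. Without 1 library each, the range was -0.0092 to 0.23 for Sox2, -0.17 to 0.18 for Sox3, -0.10 to 0.13 for Sox21, -0.30 to 0.071 for Sox9, -0.016 to 0.21 for Sox6, -0.044 to 0.055 for Sox12, -0.28 to 0.054 for Sox8, -0.10 to 0.031 for Sox13, -0.11 to 0.057 for Sox14, -0.14 to 0.089 for Sox18 and -1.13 to 0.22 for Ttr. The cause of these changes was not tested.

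With 3 libraries a group, unknown depth and no counts, small changes could not be detected, and the median SE of the 10 genes was 0.12 on the log2 scale.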
